A study of Mus musculus with 2 samples.

Results

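Keratin-associated proteins, encoded by the Krtap genes, were described in the corneal epithelium of C57BL/6 mice that was closing a wound and in intact epithelium of the fellow eyes. The members were the rows of the deposited array table whose platform gene symbol begins with Krtap and a number, and 61 of the 65952 rows met this rule. These rows carry 56 genes, the same 56 that the RefSeq annotation of GRCm38.p6 names in this way. The members were chosen by name, and a row was marked dim when its brighter value lay below 5.44, the median of the whole table. This mark uses the measured values, and the family was taken up because its values in these arrays had been seen, so the values below describe the arrays and are not tested. The mark fell on 23 rows and left 38. Of the 61 rows, 50 carry 1 gene, 3 carry several Krtap genes and 8 carry 1 Krtap gene with genes of other names, and signal on those 11 rows cannot be assigned to 1 gene.

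The mice were male and female, aged 8 weeks and anaesthetised with ketamine and xylazine. In the injured eye the epithelium was scraped away in its full thickness as far as the limbus with a 0.5 mm rust ring remover. The uninjured group is the epithelium of the other eye of such mice, so it shares the anaesthesia and has no wound. Both were collected after about 48 hours, when 10% of the wound was still open, and there was 1 array in each group. The sources used here do not say how many mice were pooled for each array. With 1 array a group no difference has a replicate check and no test was run.

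Keratin-associated proteins are small proteins of the hair shaft. They fill the matrix between the keratin filaments of the hair cortex and cuticle and link them, largely through disulfide bonds. They are grouped into proteins rich in glycine and tyrosine, proteins rich in sulfur through their cysteines, and proteins of ultra-high sulfur content, and their genes lie side by side in a few clusters. They are best known from hair follicles, and the cornea bears no hair.

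Most of these genes lie close behind a TATA box, the short motif that positions transcription in many strongly regulated genes. RefSeq promoters (GRCm38.p6) were found for 51 of the 56 genes, with none for Krtap1-3, Krtap7-1, Krtap9-1, Krtap10-10 and Krtap12-1. The letters TATAAA, read on the strand of the gene, occur 45 to 15 bases before the start in 32 of these 51 promoters (62.7%), against 2.14% of all 32851 promoters in the same window. Counted on both strands the shares were 62.7% and 2.72%. The 120 bases before the start are shown for 6 genes that span the range of differences described next, 4 of the glycine-tyrosine class, 1 high-sulfur gene that was lower and 1 bright ultra-high-sulfur gene that was not. All 6 hold the motif, so they do not show how often it occurs. Krtap19-1, Krtap6-1 and Krtap6-2, which also had rows at least 2-fold lower, lack it in the window from 45 to 15 bases. Every TATAAA is in capitals.
Krtap22-2, chr16:89010760-89010879, minus strand: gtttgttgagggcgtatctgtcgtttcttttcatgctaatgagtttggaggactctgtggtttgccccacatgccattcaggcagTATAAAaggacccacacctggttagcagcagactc
Krtap19-5, chr16:88896450-88896569, minus strand: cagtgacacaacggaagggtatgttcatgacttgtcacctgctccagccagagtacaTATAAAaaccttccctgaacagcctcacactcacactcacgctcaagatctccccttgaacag
Krtap6-5, chr16:89047900-89048019, minus strand: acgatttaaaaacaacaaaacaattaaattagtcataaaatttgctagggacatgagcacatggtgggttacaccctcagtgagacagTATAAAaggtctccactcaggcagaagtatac
Krtap8-1, chr16:89487953-89488072, minus strand: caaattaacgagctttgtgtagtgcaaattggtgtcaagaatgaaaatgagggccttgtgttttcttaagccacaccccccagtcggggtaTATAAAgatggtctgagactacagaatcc
Krtap1-5, chr11:99581017-99581136, minus strand: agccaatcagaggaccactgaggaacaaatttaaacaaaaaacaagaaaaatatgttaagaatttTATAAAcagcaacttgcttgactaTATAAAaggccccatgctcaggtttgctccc
Krtap5-1, chr7:142297135-142297254, minus strand: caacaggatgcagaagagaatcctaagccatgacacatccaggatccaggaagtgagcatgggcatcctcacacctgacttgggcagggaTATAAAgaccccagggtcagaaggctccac

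The motif begins 35 bases before the start in Krtap22-2, 32 in Krtap6-5, 29 in Krtap8-1 and 30 in Krtap5-1. In Krtap19-5 it begins 63 bases before the annotated start. Krtap1-5 holds it at 55 and again at 31 bases. In the window from 45 to 15 bases it stood before 9 of the 16 genes with a row at least 2-fold lower (56.2%) and 23 of the other 35 (65.7%). By class it stood before 6 of 14 glycine-tyrosine genes (42.9%), 8 of 15 high-sulfur genes (53.3%) and 12 of 16 ultra-high-sulfur genes (75%).

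Further motifs were searched on both strands of the 250 bases before the start, each counted on its own whether or not matches overlapped. CCAAT, a common promoter element, was in 17 of the 51 Krtap promoters (33.3%) and in 33.8% of all promoters. It was in 2 of 14 promoters of the glycine-tyrosine class (14.3%), 9 of 15 high-sulfur promoters (60.0%) and 4 of 16 ultra-high-sulfur promoters (25.0%). CTTTGAT, a core site of the LEF and TCF factors that act in the hair matrix, was in 3 of 51 (5.88%) against 3.21% of all. TTTACGA, a core site of posterior HOX factors such as Hoxc13, was in 1 of 51 (1.96%) against 0.478% of all. These are matches of letters and not measured binding.

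In the wounded epithelium 18 of the 61 Krtap rows were at least 2-fold lower and 0 at least 2-fold higher. Among all rows 2.27% were at least 2-fold lower and 1.90% at least 2-fold higher. Of the 38 rows not marked dim, 16 were at least 2-fold lower and 0 higher, where 4.14% of all rows not marked dim were lower and 3.53% higher. A row that passes the low-signal mark through its uninjured value alone has to be lower, so the count over all 61 rows is the plainer one. The median difference of the 61 rows, injured minus uninjured on the log2 scale, was -0.44, beside 0.019 over all rows, and 48 of the 61 were negative. Of the 18 lower rows 15 had an injured value below the table's median, so the size of those differences is uncertain. Among all rows 501 of the 1500 lower ones had an injured value below the table's median. Of the 21 rows with both values at or above that median 3 were at least 2-fold lower, namely Krtap19-4, Krtap9-3 and 1 row of Krtap6-1. The share of all rows under this filter was not counted, so 3 of 21 has no background to be read against. In a bulk sample fewer cells that make an RNA and less of it in each cell cannot be told apart.

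**Figure D1:**
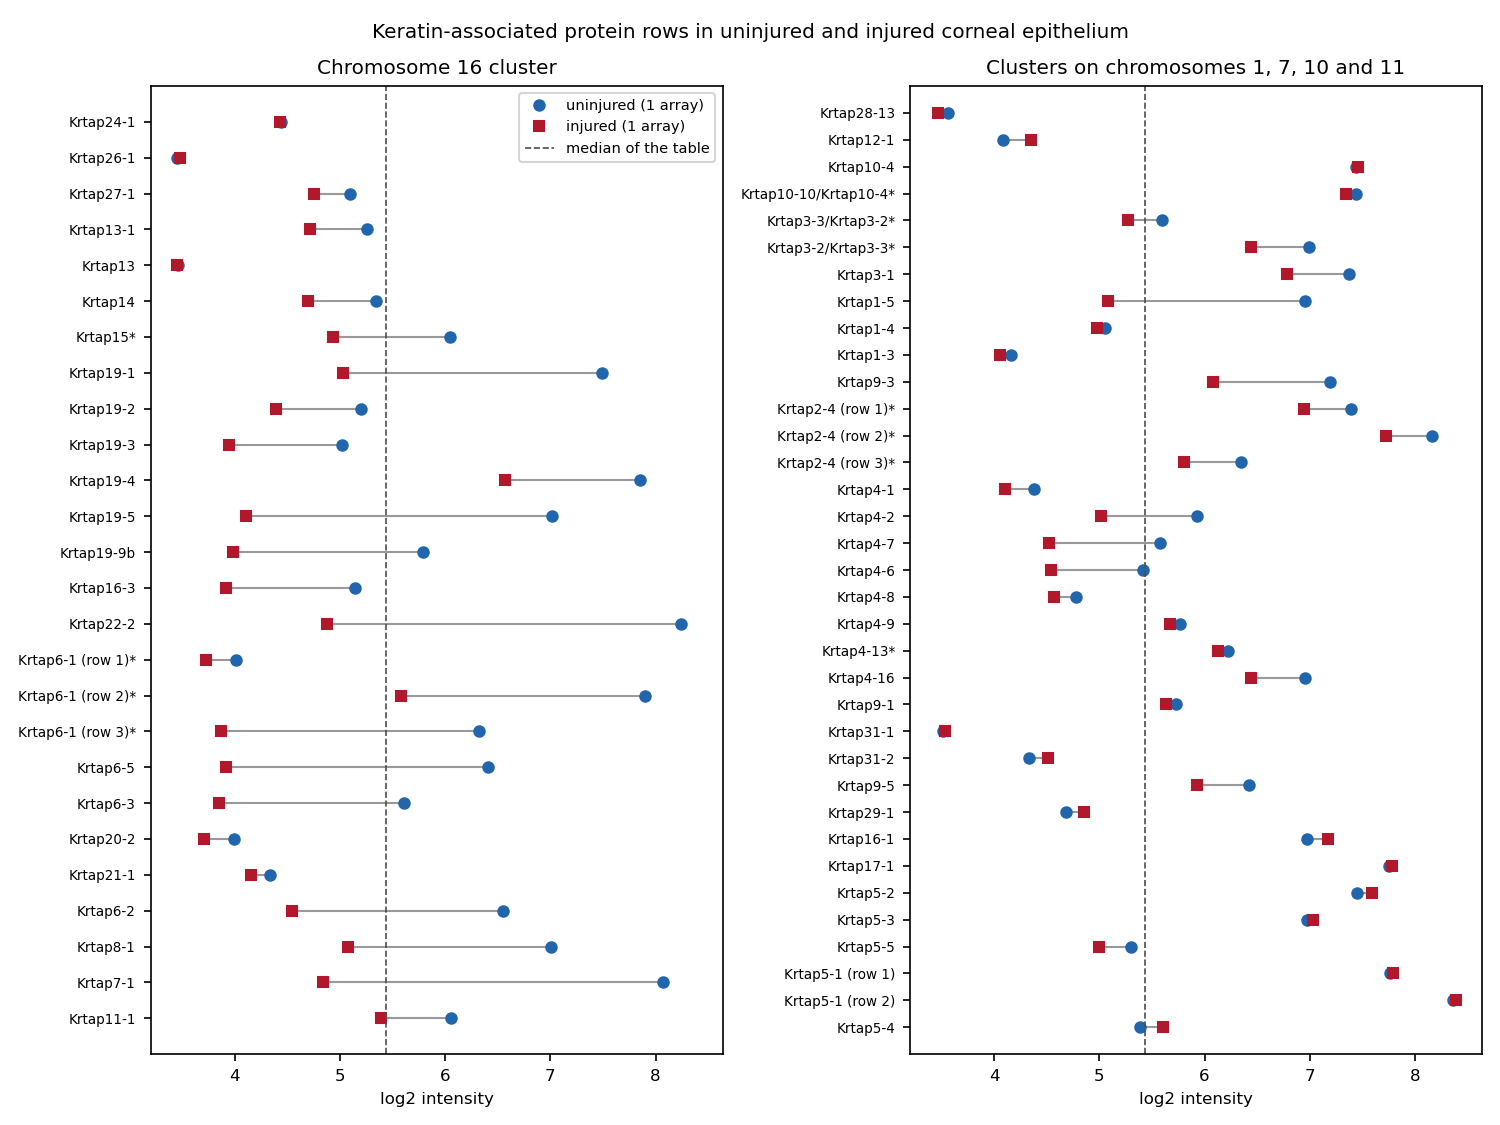
Log2 intensity (horizontal axis) of each of the 61 Krtap rows in the uninjured array (circle) and the injured array (square), in gene order within each chromosome. An asterisk marks a row that carries more than 1 gene, and the dashed line is the median of the table, 5.44. In the left panel most squares lie far left of their circles, while Krtap5, Krtap10 and Krtap17 rows in the right panel have both symbols nearly together.

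The lower rows were mostly glycine-tyrosine genes, families 6, 7, 8, 19, 20, 21 and 22. Of the 17 rows of this class 13 were at least 2-fold lower, 8 at least 4-fold lower and 0 were higher, with differences from -3.37 to -0.18 and a median of -1.93. All 17 were negative. The 4 rows less than 2-fold apart, namely Krtap19-2, Krtap20-2, Krtap21-1 and the first of 3 rows of Krtap6-1, were dim in both arrays. The classes come from the family numbers and were drawn up after the values had been seen.

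Krtap22-2, a glycine-tyrosine gene, had the largest difference of the family. Its value was 8.24 in the uninjured and 4.87 in the injured array, a difference of -3.37 or 10.3-fold. Krtap7-1, the only gene of family 7 here, was at 8.07 uninjured and 4.84 injured, a difference of -3.23 or 9.39-fold. Both rows lay well above the table's median in the uninjured array and below it in the injured array. After 11.8 had been added to each linear intensity, which damps differences at low signal, they were 7.64-fold and 6.95-fold lower.

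Family 19 is the largest of the glycine-tyrosine class on the array together with family 6, with 6 rows each. Krtap19-5 was at 7.01 uninjured and 4.11 injured, a difference of -2.90 or 7.47-fold. With the constant its fold was 4.85. Krtap19-1 was at 7.49 and 5.03 in the same order, a difference of -2.46 or 5.51-fold. Both had an injured value below the median of the table.
Krtap19-4 was at 7.86 uninjured and 6.57 injured, a difference of -1.29, and was the 1 lower row of its family whose injured value stayed above that median. Krtap19-9b was at 5.79 and 3.98, a difference of -1.81. The remaining rows, Krtap19-3 (5.02 uninjured, 3.95 injured) and Krtap19-2 (5.20 uninjured, 4.39 injured), were dim in both arrays, with differences of -1.07 and -0.81. All 6 rows of family 19 were thus lower in value in the injured array, and 5 of them passed 2-fold.

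Family 6 holds the genes first described as type II glycine-tyrosine proteins of hair. Krtap6-5 was at 6.40 uninjured and 3.92 injured, a difference of -2.48 or 5.59-fold, and 3.58-fold with the constant. Krtap6-2 was at 6.55 and 4.55, a difference of -2.01. Krtap6-3 was at 5.61 and 3.85, a difference of -1.77.
Krtap6-1 has 3 rows, each shared with Gm10228 and 1110025L11Rik, and they did not show the same difference. One row was at 7.90 uninjured and 5.58 injured (-2.32), one at 6.32 and 3.87 (-2.45), and one at 4.01 and 3.73 (-0.28), dim in both arrays. Krtap8-1, the only gene of family 8, was at 7.01 uninjured and 5.07 injured, a difference of -1.93 or 3.82-fold. Krtap20-2 (3.99 uninjured, 3.71 injured) and Krtap21-1 (4.33 uninjured, 4.16 injured) were dim in both arrays, where a difference could hardly be seen.

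All rows of the glycine-tyrosine class lie in 1 cluster on chromosome 16, so the class and the place in the genome cannot be told apart by these rows alone. The cluster also holds high-sulfur genes. Of its 26 rows 15 were at least 2-fold lower and 25 were negative. In RefSeq order the 18 rows from Krtap19-1 to Krtap7-1 included 14 that were at least 2-fold lower, with a median difference of -1.87. The ends of this stretch are the first and last rows of the glycine-tyrosine class, and it was drawn after the values had been seen. Its contrast with the rows outside it is therefore only a description. The 7 rows before Krtap19-1, Krtap24-1 to Krtap15, had a median of -0.35 and 1 at least 2-fold lower, and 6 of these 7 were dim. Krtap15, a high-sulfur gene and the last before Krtap19-1, shares its row with 4930553J12Rik and was at 6.04 uninjured and 4.93 injured (-1.11). Krtap16-3, which was not put in a class and lies within the lower stretch, was dim at 5.15 and 3.91 (-1.23). On the other side of the stretch, the high-sulfur gene Krtap11-1 was at 6.06 uninjured and 5.39 injured, a difference of -0.66. Krtap14, dim at 5.34 and 4.70, differed by -0.64.

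Protein-coding genes without a Krtap name lie between the members, and the naming rule did not use them. Whether they encode keratin-associated proteins under provisional names was not checked, so they may not be a separate set. Gm10228 and 1110025L11Rik, also without a Krtap name, share the rows of Krtap6-1. Of the 10 genes without a Krtap name between the members on chromosome 16 with a row of their own, 5 were at least 2-fold lower and 0 higher. Those 5 are the 5 that lie between Krtap19-1 and Krtap7-1, and the 5 that lie before Krtap19-1 differed by -0.43 to 0.22. That split uses the stretch described above, which was drawn after the values had been seen.
Gm7735 was at 10.87 uninjured and 8.20 injured, a difference of -2.67 or 6.35-fold. Gm10061 was at 10.15 and 8.06 (-2.09), and Gm6358 at 10.12 and 8.29 (-1.83). These 3 stayed above the median of the table in both arrays, so their differences do not rest on values at low signal.
Gm10229 was at 6.57 uninjured and 3.93 injured (-2.64), and Gm9789 at 6.49 and 5.34 (-1.15). None of the 4 genes flanking the cluster was at least 2-fold lower. Of all rows not marked dim 4.14% were, so finding none among 4 genes says nothing about the edge of the cluster. On one side the claudin genes Cldn8, a tight junction protein (6.52 uninjured, 7.65 injured), and Cldn17 (9.37 uninjured, 9.34 injured) differed by 1.13 and -0.03. On the other side Tiam1, an activator of the GTPase Rac, differed by -0.40 (9.33 uninjured, 8.93 injured) and Sod1, a superoxide dismutase, by 0.50 (8.94 uninjured, 9.44 injured).

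**Figure D2:**
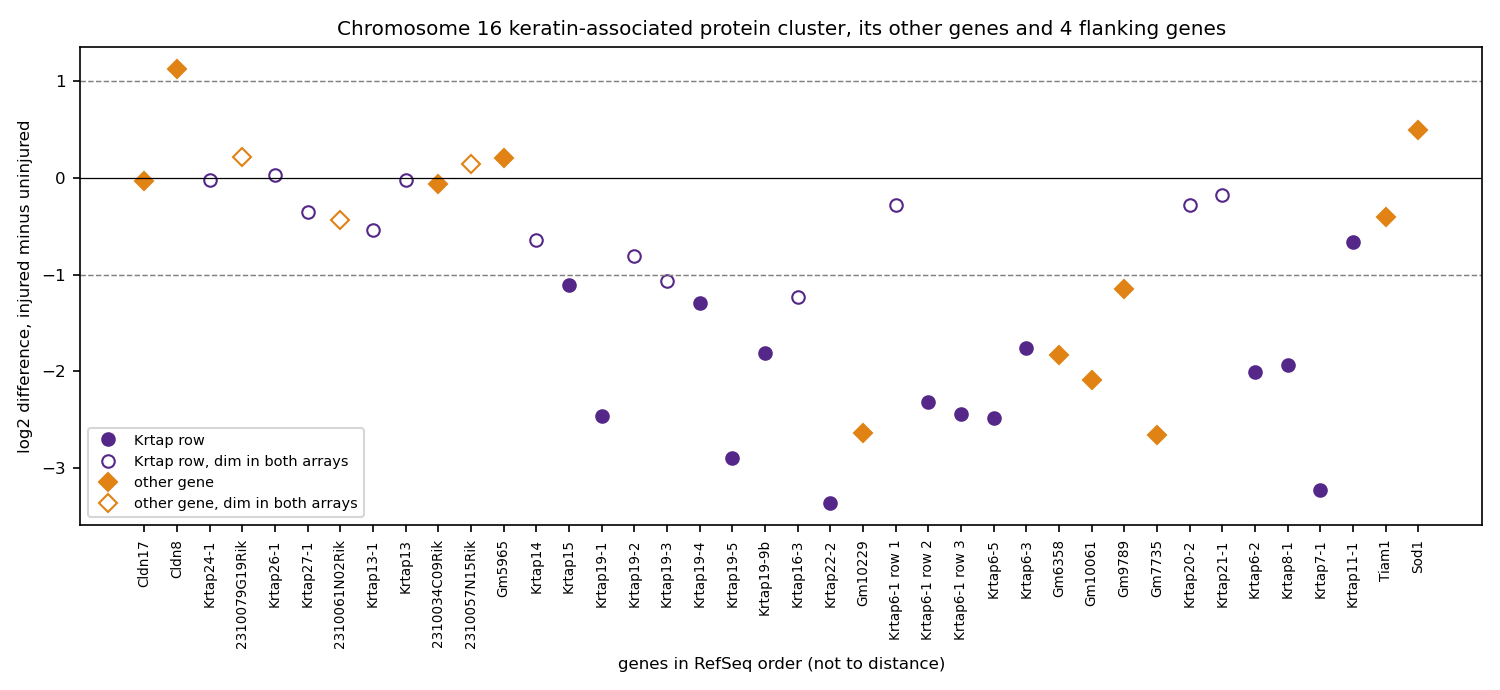
Log2 difference, injured minus uninjured (vertical axis), of the 26 Krtap rows of the chromosome 16 cluster. The 10 protein-coding genes between them without a Krtap name and 4 flanking genes are included, in RefSeq order and not to distance. Open symbols are dim in both arrays and dashed lines mark 2-fold. Between Krtap19-1 and Krtap7-1, 14 of 18 Krtap rows and 5 of 5 other genes lie below the lower line, and the flanking genes lie between -0.40 and 1.13.

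High-sulfur and ultra-high-sulfur genes differed less. Of 20 high-sulfur rows 2 were at least 2-fold lower and 0 higher, and their median was -0.39. Of 18 ultra-high-sulfur rows 2 passed 2-fold, both lower, and their median was -0.15. Of the 6 rows left without a class, Krtap16-3 was the only one past 2-fold. Whether the classes differ was not tested, since there is 1 array in each group and rows are not replicates.

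The cluster on chromosome 11 lies among the type I keratin genes and holds families 1, 2, 3, 4, 9, 17, 29 and 31 and Krtap16-1. Of its 25 rows 3 were at least 2-fold lower and 20 were negative, with a median of -0.32. Krtap1-5, a high-sulfur gene, was at 6.95 uninjured and 5.08 injured, a difference of -1.87 or 3.66-fold, and 2.97-fold with the constant. Its neighbours of the same family, Krtap1-4 (5.05 uninjured, 4.97 injured) and Krtap1-3 (4.15 uninjured, 4.05 injured), were dim. So family 1 rests on 1 row.
Krtap9-3, of ultra-high sulfur content, was at 7.19 uninjured and 6.08 injured (-1.11), 2.15-fold, and stayed above the table's median in both arrays. The other rows of family 9 differed less, with Krtap9-5 at 6.42 and 5.92 (-0.49) and Krtap9-1 at 5.73 and 5.63 (-0.09). With the constant Krtap9-3 was 1.98-fold lower and no longer past 2-fold, and the same holds for Krtap15 (1.84-fold) and Krtap4-7 (1.71-fold) and for the dim rows of Krtap16-3 (1.76-fold) and Krtap19-3 (1.62-fold). These are 5 of the 18 lower rows.

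Family 4, the largest of the ultra-high-sulfur class, had 8 rows and all were negative. Krtap4-7 was at 5.57 uninjured and 4.52 injured (-1.05), the 1 row of this family past 2-fold. Krtap4-2 was at 5.92 and 5.02 (-0.91). Krtap4-16 was at 6.95 and 6.44 (-0.51). By brighter value Krtap4-7 and the shared row of Krtap3-3 and Krtap3-2 (5.59 uninjured, 5.27 injured) lie just above the low-signal mark, and Krtap4-6 (5.42 uninjured, 4.54 injured) and Krtap14 just below it. Rows on either side of that mark thus had similar values.

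Families 2 and 3 are high-sulfur genes of the hair cortex, and both were slightly lower in value on every row. Krtap3-1 was at 7.37 uninjured and 6.78 injured (-0.58). The second row shared by Krtap3-2 and Krtap3-3 was at 7.0 and 6.44 (-0.56). The 3 rows of Krtap2-4, shared with Gm11937 and Gm11938 and on the last also with Gm11562, were at 8.17 and 7.72, at 7.39 and 6.95, and at 6.34 and 5.80, with differences of -0.45, -0.44 and -0.54. Each of the 6 rows of these families was less than 2-fold apart. For comparison, the SD of the difference between rows of 1 gene was 0.244 over 542 rows of 256 genes not marked dim, which is an error within these arrays and not between mice.

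Several rows above the low-signal mark had nearly equal values in both arrays. Krtap17-1, at the end of the chromosome 11 cluster next to the hair keratin genes, was at 7.75 uninjured and 7.78 injured (0.03). Krtap16-1, also on chromosome 11, was at 6.98 and 7.17 (0.19). The ultra-high-sulfur genes of family 5 form a cluster on chromosome 7, where 0 of 6 rows passed 2-fold and differences ran from -0.30 to 0.22. The 2 rows of Krtap5-1 were at 8.36 uninjured and 8.39 injured and at 7.77 and 7.79. Krtap5-2 was at 7.45 and 7.59, Krtap5-3 at 6.97 and 7.03, and Krtap5-4 at 5.39 and 5.61. Every one of these rows differed by less than the SD between rows of 1 gene, except Krtap5-5, which was dim at 5.30 and 5.0.
On chromosome 10 the high-sulfur gene Krtap10-4 was at 7.44 uninjured and 7.46 injured, and the row that Krtap10-10 shares with Krtap10-4 and Gm2696 was at 7.44 and 7.34. Krtap12-1 was dim at 4.08 and 4.35, and its 0.26 was the highest difference of all 61 rows. Other genes between the members did not pass 2-fold on chromosomes 7, 10 and 11, with 2, 7 and 11 genes and medians of -0.04, -0.07 and -0.21. Of all rows 2.27% were at least 2-fold lower and 1.90% higher, so finding none among so few genes is near those shares. Of the genes that flank those clusters, Syt8, a synaptotagmin next to the chromosome 7 cluster, was at 10.14 uninjured and 8.69 injured, a difference of -1.45 or 2.73-fold. The remaining dim rows with a positive difference, Krtap31-2, Krtap29-1, Krtap26-1 and Krtap31-1, differed by 0.18, 0.17, 0.03 and 0.02.

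The keratins that keratin-associated proteins bind in hair were present in the table, with differences from -0.46 to 0.21. Of 16 hair cortex and cuticle keratins 14 had a row, 12 of them above the low-signal mark, and 0 passed 2-fold in either direction. Such a count is near the shares of all rows, 2.27% at least 2-fold lower and 1.90% higher. Krt81 and Krt83 share 1 row. The cortex keratin Krt86 was at 7.36 uninjured and 6.90 injured (-0.46), Krt31 at 6.84 and 6.44 (-0.39) and Krt33b at 7.31 and 6.99 (-0.32). Krt35, an early keratin of the hair matrix, was dim at 5.28 and 5.42. The median of the 14 was -0.13, and that of the 12 not marked dim was -0.26. No value was used for Krt85 and Krt87.
Genes of the inner root sheath, the layer that moulds the growing hair, were listed together with genes of the companion layer and hair cuticle. Of these 18 genes 1 passed 2-fold, and their median was -0.01. The 1 gene, higher in the injured array, was Padi3, a peptidylarginine deiminase that modifies hair and epidermal proteins, at 5.89 uninjured and 7.0 injured (1.11). S100a3, a calcium-binding protein of the hair cuticle, was at 8.44 and 9.38 (0.94), and Krt75 of the companion layer at 8.47 and 8.23 (-0.24). No gene of these hair keratin and root sheath lists was at least 2-fold lower, which is near the 2.27% of all rows.

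Regulators of hair shaft genes went in both directions. Of 20 genes 2 were at least 2-fold lower and 1 was higher, and their median was 0.03. The repressor Prdm1 was at 8.95 uninjured and 7.19 injured (-1.76), and the homeobox gene Cux1 at 9.61 and 8.40 (-1.22). Foxn1, the forkhead factor mutated in nude mice and needed for a normal hair shaft, was at 6.42 and 7.55 (1.14). Hoxc13, the homeobox factor that activates hair keratin and Krtap genes, was at 5.94 and 5.93 (-0.01).

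**Figure D3:**
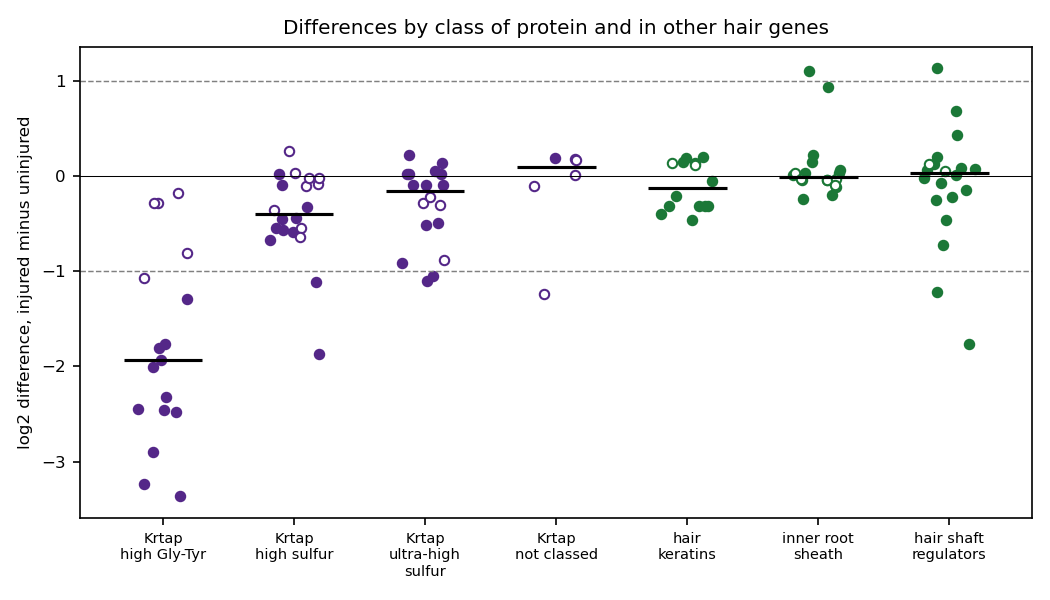
Log2 difference, injured minus uninjured (vertical axis), of the Krtap rows by class of protein and of the genes of 3 other hair lists, with 1 point a row or gene. Bars are medians over all points, open points are dim in both arrays and dashed lines mark 2-fold. The glycine-tyrosine rows reach from -3.37 to -0.18 with the bar at -1.93, and the hair keratins lie between -0.46 and 0.21.

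Markers of the cell types that the samples could hold were set beside these differences. Of 6 hair matrix and shaft markers with a row 1, Foxn1, passed 2-fold, and their summed linear intensity was 613 uninjured and 588 injured. These near-equal sums hide differences in both directions. Foxn1 (1.14) and the dim Krt35 (0.14) were higher in value. Dlx3 (-0.72), Krt86 (-0.46) and Krt31 (-0.39) were lower, and Hoxc13 was nearly equal (-0.01). Of 6 inner root sheath markers 0 passed 2-fold, with sums of 345 and 380. Of 5 epidermal markers 0 did, with sums of 623 and 606. Counts of 0 in lists this short are near the shares of all rows, 2.27% lower and 1.90% higher. No marker is at 0 on this scale, and 1 of 6 in each hair list, Krt35 and Tchh, was dim in both arrays.
Corneal epithelial markers were mostly lower, though the marker lists were chosen with earlier results of these data known. Of 9 markers 7 were at least 2-fold lower and 1 higher, and the sum was 74535 uninjured and 29853 injured. Krt12, the keratin that defines the corneal epithelium, was at 14.07 uninjured and 10.85 injured (-3.22). The hair-bearing skin of the lids is not represented by a sample here, and the part that any of these tissues has in the Krtap differences was not tested.
Of the other lists, conjunctival and goblet markers had 2 of 7 at least 2-fold higher and 1 lower (sums 10101 and 11821), and leukocyte markers 2 of 10 higher and 1 lower (2174 and 1636). A sum leans on the brightest genes of its list. The 1 lower leukocyte marker, Itgam, was the brightest of them when uninjured (10.26 uninjured, 8.72 injured). The 2 higher ones were S100a9 (1.89) and the dim S100a8 (1.55). Keratocyte markers had 1 of 6 lower (449 and 373), meibomian and sebaceous markers 0 of 6 past 2-fold (1781 and 2910), and melanocyte and nerve markers 0 of 4 (189 and 183). Scd1, the brightest meibomian and sebaceous marker, was at 10.25 uninjured and 11.09 injured (0.84).
The keratins of basal, wounded and other epithelia had 7 of 25 genes higher and 4 lower by 2-fold or more (median 0.05), and barrier genes of the epidermal differentiation complex 9 of 26 higher and 2 lower (median 0.14). Krt16, a wound keratin, was the highest of the first list (4.45) and Krt12 the lowest. Of the Krtap rows 0 of 61 were at least 2-fold higher, which is near the 1.90% of all rows. Both lists were chosen with earlier results of these data known, so the contrast with them is no result about the Krtap rows.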

How the data were processed

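RNA of corneal epithelium was labelled with biotin and hybridised to 1 array for injured and 1 for uninjured eyes. The authors' deposited values are log2 intensities, 1 column a sample, from 2.54 to 14.1. Agilent Feature Extraction 9.1 is the tool named per the submitters' processing notes, although biotin labelling and identifiers of transcript cluster form were used. The sources used here give no background correction, summarisation, normalization or genome build. The medians (5.44 injured, 5.43 uninjured) nearly coincide, so values were used as deposited. No detection or saturation call was used, and the number of arrays limits the precision.

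Rows were named from the platform annotation, with symbols updated through synonyms in RefSeq (GRCm38.p6), which also gave gene order. For a listed gene the brightest single-gene row on average was used, or a shared row where there was none. Differences are injured minus uninjured and counted at 2-fold, without a test. Members and lists were chosen with earlier results of these data known.

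Named rows were those not dim and at least 1.5-fold apart, the 5 highest and 5 lowest differences of rows dim and not dim, the 5 brightest, 2 on each side of the mark and all rows with several Krtap genes (37 rows). From each other list the rule took up to 3 genes with the largest difference. Krtap4-16, Krtap9-1, Krtap9-5, Krtap17-1, Krtap10-4, Krtap1-4, Krtap1-3, Krtap3-1, Krtap20-2, Krtap21-1, Krtap5-5 and the genes beside the members were chosen after their values were seen. Amino acid composition was not used here, so classes follow family numbers. Counting and the quantile, median and loess normalizations were tested on simulated data. The simulated differences were set only into rows well above the median. Rows of low signal, the low-signal filters and the linear constant were thus not covered. Python 3.11.15, pandas 2.3.3, numpy 2.4.6 and statsmodels 0.14.6 were used. Alternatives were quantile, median and loess (span 0.3) normalization, other low-signal filters, single-gene rows, 1.5-fold and 4-fold thresholds and a linear constant.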

Additional observations from a re-analysis of the deposited data

How the results depend on the processing

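The count of 0 Krtap rows at least 2-fold higher was the same under all 10 alternatives run. Those that only remove rows, the 4-fold threshold and the linear constant could not have raised it, so they are no check of this count. The 16 lower rows not marked dim became 9 with the brighter value at or above the 75th percentile, 3 with the dimmer value also at or above the median, and 8 at 4-fold. The median of those rows was then -0.095 in place of -0.57 under the filter on the dimmer value, which removes rows that fell to low signal. The shares of all rows under these filters and at 4-fold were not counted. For the glycine-tyrosine class the 12 lower rows became 7 and 2 under the same filters, with 7 and 2 rows left to count. All but 2 of the 12 rows passed the low-signal mark through the uninjured value alone and had to be lower. These counts are therefore no support, and the median with no filter is the plainer one. The median of this class was -2.38 over rows not marked dim and -1.93 with no filter. It was -1.82 with the linear constant and -1.81 with the filter on the dimmer value. Quantile, median and loess normalization moved no difference of the 37 named rows by 0.244 or more, the SD between rows of 1 gene. The constant moved 15 of them by more. It was the same for both arrays and so cannot change the sign of a difference. With it 13 of the 16 lower rows not marked dim stayed at least 2-fold lower, and of the 18 lower among all 61 rows 5 did not (Krtap9-3, Krtap15, Krtap4-7, Krtap19-3 and Krtap16-3). The list medians moved by less than that SD. No paired analysis was possible because each group has 1 array and the difference between the eyes leaves no spread. With 1 array a group none could be left out.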
